A study of Saccharomyces cerevisiae with 8 samples.

Results

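The comparison described here is the interaction of anisomycin treatment and loss of Upf1 in budding yeast, which asks for which RNAs the response to the drug depends on whether Upf1 is present. For each RNA it is the log2 change under anisomycin in the upf1 mutant minus the log2 change under anisomycin in the wild type. It was computed over all 8 libraries of the 8 in the series. Of the 11966 features deposited, the 11579 that passed a filter on mean density were fitted. A negative value means a weaker rise, or a stronger fall, in the mutant. The wild type (WT) was strain BY4741, a haploid laboratory strain of genotype MATa his3Δ1 leu2Δ0 met15Δ0 ura3Δ0, and the mutant was the same strain with upf1::kanMX4. All cultures grew in YPD at 30 °C to an OD600 of 0.5 and received anisomycin (ANS) at 100 µg/ml, or the same volume of its solvent DMSO, for 30 min. The design thus has 4 groups, the 2 strains each with the drug (ANS) or the solvent alone (DMSO, untreated), with 2 biological replicates in each, and the measurement was stranded total RNA depleted of ribosomal RNA.

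Upf1, the product of NAM7, is an RNA helicase at the centre of nonsense-mediated decay (NMD), which removes RNAs on which a ribosome stops early, as after a short upstream reading frame or a premature stop codon. Recognition of such a stop needs translation, and anisomycin blocks peptide bond formation on the ribosome. Besides mRNAs, the files cover noncoding transcripts that are usually short-lived: XUTs, which build up without the cytoplasmic exonuclease Xrn1, SUTs, which are stable enough to be seen in wild-type cells, CUTs, which build up without the nuclear exosome, and NUTs, which extend when the termination factor Nrd1 is depleted. Many XUTs and SUTs reach the cytoplasm.

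Values are densities as the authors deposited them, which behave as reads per nucleotide scaled on small nucleolar RNAs (snoRNAs). Depth came to 6954353 to 11994371 reads per library, recovered from the densities. In bulk RNA, fewer cells with an RNA and less of it per cell cannot be told apart. Protein-coding genes had a median density of 0.144 and 0.145 in untreated WT, 0.470 and 0.596 in treated WT, 0.188 and 0.172 in the untreated mutant and 0.565 and 0.507 in the treated mutant. Since mRNA as a whole moved this far on the deposited scale, each interaction was fitted on that scale and again relative to protein-coding genes, after rescaling each library to a common level of protein-coding genes, and an RNA is called here only where both fits pass an adjusted p of 0.05 in the same direction. The median interaction of protein-coding genes was -0.15 (log2) on the deposited scale and 0.06 relative to protein-coding genes. NAM7 had densities of 0.432 and 0.449 in untreated WT, 1.24 and 1.59 in treated WT, 0.0113 and 0.00975 in the untreated mutant and 0.0210 and 0.0244 in the treated mutant, so both mutant groups lay far below both WT groups. All 7 markers of a cells were detected, with a summed density of 12.2 to 76.4 per library, while the 4 alpha-cell markers summed to 0.0522 to 0.547 and none of them was at 0 in all libraries.

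The interaction was almost entirely on one side. Of 11579 features tested, 890 (7.69%) had a lower interaction on both scales and 15 (0.13%) a higher one. On the deposited scale alone the counts were 968 (8.36%) lower and 22 (0.19%) higher, and relative to protein-coding genes 1217 (10.5%) lower and 84 (0.725%) higher. When libraries were instead scaled on all tested features, 937 were lower and 355 higher, so higher calls made up 27.5% of calls rather than 6.5%. All 890 and 15 features kept their sign in each of the 16 ways of taking 1 library per group. These ways reuse the libraries that made the calls, so they add no separate support. The lower count varied with the libraries used: without upf1 ANS replicate 2 it was 0, without upf1 DMSO replicate 1 it was 13, without upf1 ANS replicate 1 it was 224, without upf1 DMSO replicate 2 it was 268, and without WT ANS replicate 2 or WT DMSO replicate 1 it was 529 and 539. The higher count was 2, 3 or 0 without upf1 DMSO replicate 1, upf1 ANS replicate 1 or upf1 ANS replicate 2, 8 without WT DMSO replicate 1 and 28 without WT ANS replicate 2.

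**Figure D1:**
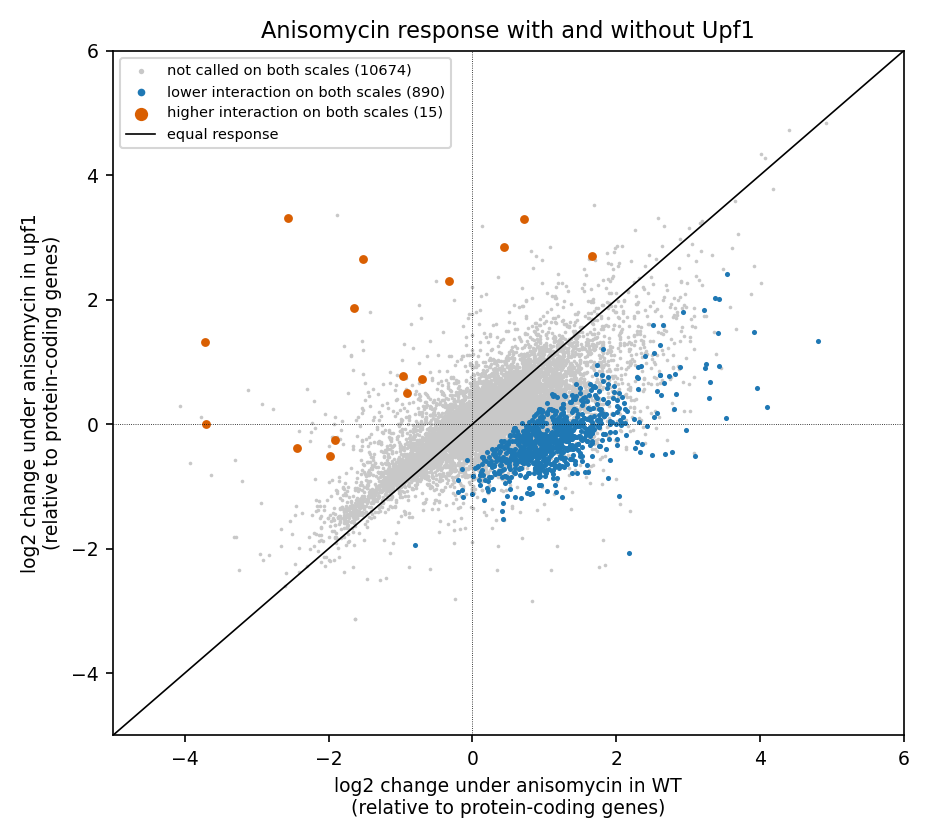
Log2 change under anisomycin in WT (x axis) and in upf1 (y axis), both relative to protein-coding genes, for the 11579 features tested. Blue points are the 890 features with a lower interaction on both scales and orange points the 15 with a higher one. Most blue points lie to the right of 0 and near or below 0 on the y axis, so their fitted change relative to mRNA was above 0 in WT and mostly near or below 0 in the mutant.

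Among 5779 protein-coding genes tested, 357 (6.18%) had a lower interaction on both scales and 3 (0.0519%) a higher one. The deposited scale alone gave 372 (6.44%) lower and 3 (0.0519%) higher, and the scale relative to protein-coding genes 526 (9.1%) lower and 61 (1.06%) higher. Over the 357 genes the median density was 0.0536 in untreated WT, 0.345 in treated WT, 0.191 in the untreated mutant and 0.475 in the treated mutant, so in the medians the mutant was higher without the drug and the strains lay closer together under it. Not every gene followed the medians: CTF19, a kinetochore gene named here after its values were seen, had a log2 difference between mutant and WT, relative to protein-coding genes, of 0.30 in DMSO and -0.77 under the drug. Relative to protein-coding genes, their median change under anisomycin was 0.89 in WT and -0.27 in upf1 on the log2 scale, and 269 of the 357 had a value below 0 in the mutant. The same libraries read the other way gave a median difference between mutant and WT of 1.5 in DMSO and 0.40 under the drug. On the deposited scale the drug response in the mutant was smaller than in WT but above 0, with medians of 1.21 against 2.53, and none of the 357 had a value below 0 there. An interaction on a log scale compares folds: in density units the gain under the drug was larger in the mutant for 130 of the 357 genes.

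The 12 genes with the largest negative interaction among those with a mean density above the protein-coding median were SRL3, YOL014W, DAL7, NUT2, ISC10, SLO1, EMA17, STN1, HTL1, YLR125W, FLR1 and YOR376W-A. That mean is over all 8 libraries, so the other groups carried these genes past the floor. In untreated WT the 12 genes read 0.0368 to 0.141, below the protein-coding medians of 0.144 and 0.145 there. Of these, the ones with the longest record as NMD targets are STN1, a telomere capping protein that acts with Cdc13 and Ten1, and DAL7, a malate synthase of allantoin breakdown. Short upstream reading frames close to the start codon are one of the features known to bring an mRNA to NMD, and in the R64 genome sequence 6 of the 12 genes have an ATG within 50 bases upstream of their start codon that opens a frame of its own. The 5 windows below show that ATG in capitals, together with the stop codon of the upstream frame or the start codon of the gene where either falls in the same 30 bases.
SRL3, chrXI:611475-611504, plus strand: aggATGgaagaagaacctgagcacaaacgg
DAL7, chrIX:414686-414715, minus strand: agtATGtgtcataggcacggtaaagagcac
EMA17, chrIX:301275-301304, minus strand: aggATGctgtattaccgccgtTAGccatca
STN1, chrIV:610414-610443, plus strand: gctggcttttaataATGggttggagccATG
FLR1, chrII:254230-254259, minus strand: ttATGgtgaagctattaTAAaagagtatcc
The upstream frame runs for 15 codons in SRL3, 9 in DAL7, 6 in EMA17, 6 in STN1 and 5 in FLR1. It ends before the gene's start codon in DAL7, EMA17 and FLR1 and overlaps the start codon in SRL3 and STN1. SPL2, which was called higher and is described below, has such an ATG too, 10 bases upstream of its start codon. The upstream frame of SPL2 runs for 15 codons and overlaps the start codon. Whether the transcripts begin upstream of these ATGs was not measured.

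SRL3, a relative of the G1 repressor Whi5, had the most negative interaction of these genes. Its density was 0.0368 and 0.0468 in untreated WT, 0.841 and 1.21 in treated WT, 0.217 and 0.196 in the untreated mutant and 0.780 and 0.855 in the treated mutant. The 2 strains were apart in DMSO and overlapped under the drug. The interaction was -2.35 ± 0.195 (SE) relative to protein-coding genes (limma adjusted p = 0.00261).

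DAL7 had densities of 0.0425 and 0.0489 in untreated WT, 0.351 and 0.482 in treated WT, 0.607 and 0.557 in the untreated mutant and 1.11 and 0.998 in the treated mutant. No 2 groups overlapped, and the untreated mutant lay above the treated WT. The drug response relative to protein-coding genes was 1.42 in WT and -0.64 in upf1, an interaction of -2.06 ± 0.123 (SE) with a limma adjusted p of 0.00172.

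STN1 read 0.0544 and 0.0591 in untreated WT, 0.402 and 0.485 in treated WT, 0.390 and 0.351 in the untreated mutant and 0.781 and 0.676 in the treated mutant. The untreated mutant lay just below the treated WT, and the 2 drug groups did not overlap. The interaction was -1.74 ± 0.112 (SE), with a limma adjusted p of 0.00172.

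ISC10, a gene needed for sporulation, and SLO1 lie side by side on the same strand of chromosome V and behaved alike. ISC10 densities were 0.0826 and 0.0833 in untreated WT, 0.449 and 0.529 in treated WT, 0.853 and 0.716 in the untreated mutant and 1.14 and 0.912 in the treated mutant. Relative to protein-coding genes, ISC10 changed by 0.82 with the drug in WT and by -1.11 in upf1, and SLO1 by 0.80 and -1.12. The interactions were -1.94 ± 0.128 (SE) for ISC10 and -1.93 ± 0.202 (SE) for SLO1, with limma adjusted p of 0.00172 and 0.00325. Both genes had a larger density in untreated mutant cells than in treated WT cells in every library, and reads that run from one gene into the other cannot be told apart here.

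HTL1, a subunit of the RSC chromatin remodeller, was the most abundant of the 12 genes. It read 0.115 in both untreated WT libraries, 0.806 and 0.895 in treated WT, 0.864 and 0.753 in the untreated mutant and 1.59 and 1.48 in the treated mutant. The treated WT and the untreated mutant overlapped, with untreated WT below them and the treated mutant above. Its interaction was -1.73 ± 0.114 (SE), with a limma adjusted p of 0.00172. NUT2, a Mediator subunit that shares only its name with the NUT transcripts, had an interaction of -2.03 ± 0.145 (SE). FLR1, a multidrug transporter, had -1.57 ± 0.138 (SE) and a drug response of 0.79 in WT against -0.79 in upf1. YOL014W, EMA17 and YLR125W had interactions of -2.13, -1.78 and -1.70. The least certain of the 12 was YOR376W-A, at -1.54 ± 0.395 (SE; limma adjusted p = 0.0497). Leaving out any 1 library kept all 12 interactions negative relative to protein-coding genes. They were -2.51 to -2.19 for SRL3 and -1.99 to -1.07 for YOR376W-A. Such fits leave 1 library in a group, and the calls on both scales depended on single libraries, as given above for the lower count.

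**Figure D2:**
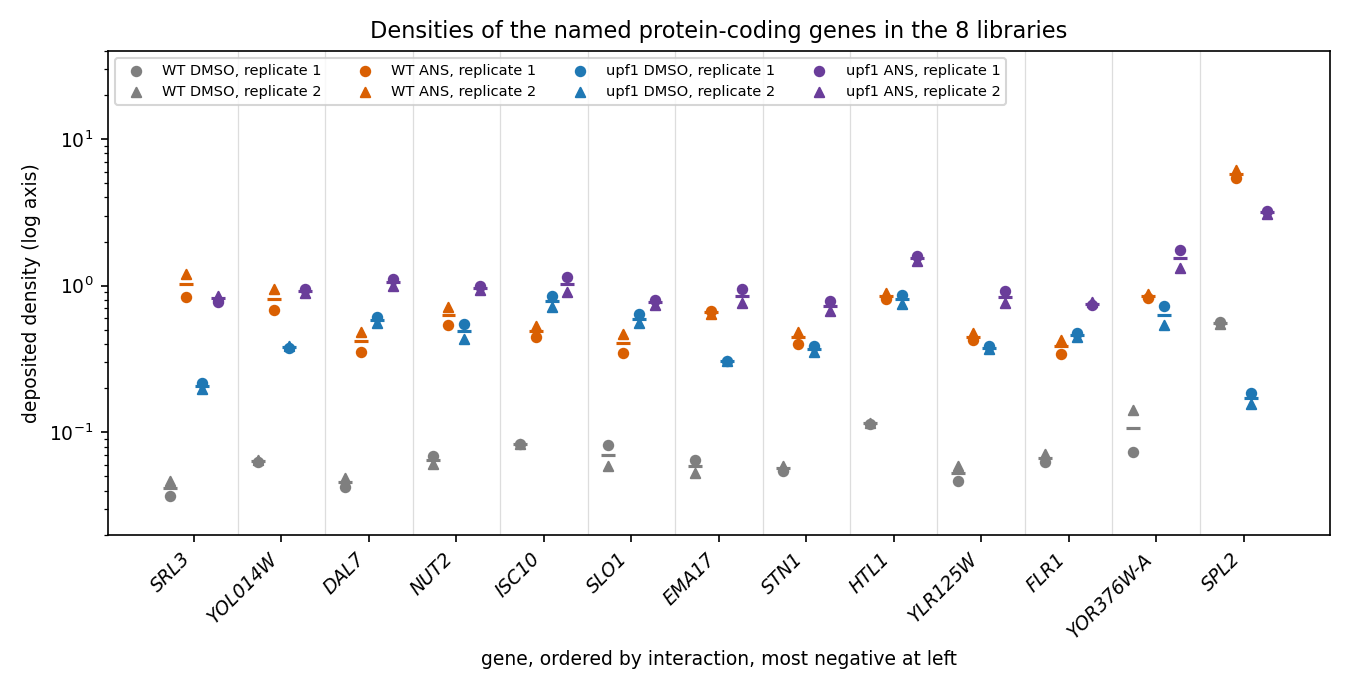
Deposited density (log axis) of the 12 genes with the largest negative interaction and of SPL2 in each of the 8 libraries; circles are replicate 1, triangles replicate 2 and short bars the mean of the 2. In the 12 genes untreated WT stands alone at the bottom, and in SPL2 the lowest group is the untreated mutant.

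Upstream start codons were more common among the 357 genes than among the rest. An ATG within 50 bases before the start codon that opens a separate frame was found in 130 of 357 genes (36.4%), against 1075 of 5778 tested protein-coding genes (18.6%) and 945 of the 5421 that were not lower (17.4%). Among the called genes the share was 36.1% below and 37.0% above the median density, while among the other genes it was 22.5% below and 12.5% above. Density here is again the mean over all 8 libraries, so it includes the groups in which called genes are high. Called and other genes on the same side of the median are therefore not matched on the level in untreated WT. Part of the contrast between them can come from the split. With any ATG counted in the last 100 bases, the shares were 68.9% and 51.1% of all tested genes. Other features of the genes differed less. An A at the third base before the start codon was present in 59.7% of the called genes and 60.5% of all, an intron in 3.36% and 4.6%, and the median coding length was 1011 and 1194 bases. These shares are descriptions and were not tested.

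**Figure D3:**
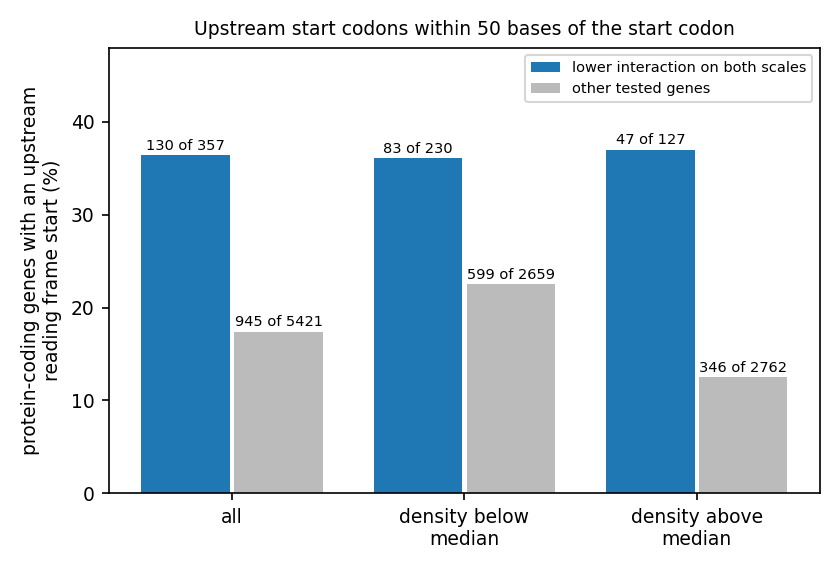
Percent of protein-coding genes with an ATG within 50 bases upstream of the start codon that opens a separate reading frame, for genes with a lower interaction on both scales (blue) and all other tested genes (grey), over all genes and split at the median density; counts stand above the bars. The blue bars stay at 36.1% to 37.0% on either side of the median while the grey bars fall from 22.5% to 12.5%. Density is the mean over all libraries, so blue and grey genes are not matched on the level in untreated WT.

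Annotated pseudogenes, many of which carry a premature stop inside their coding sequence, were the class with the highest share of lower interactions. Of 11 tested, 7 (63.6%) were lower on both scales, against the 6.18% of protein-coding genes, and none was higher. In the R64 sequence, 7 of the 11 have an in-frame stop before the annotated end, and 6 of these 7 were lower. Of the 4 whose frame runs to the annotated end, 1 was lower. The open frames not called, HXT12, YLL017W and YPL276W, read only 0 to 0.0122 in untreated WT. Their interactions relative to protein-coding genes were 0.21, -0.64 and -0.88. Among those called, YIR043C and YOL153C were scarce in untreated WT too, at 0.00328 to 0.00796. Whether the split follows the stop codon or the read depth was not tested. The windows show the first in-frame stop, in capitals, of the 6 that were lower and of CRS5, which was not. These genes were chosen after their values were seen.
FLO8, codon 142, chrV:377177-377206, minus strand: tttttgtatgaatggTAGcaaatattctgg
CCW22, codon 67, chrIV:721269-721298, minus strand: aatgacgttatcactTAAtacaccacctgg
AAD6, codon 213, chrVI:14781-14810, minus strand: gtaaatggaacctgtTGAacagagacttcg
SDL1, codon 128, chrIX:29398-29427, plus strand: tacttgaggcacgaaTGAatggcgcaagaa
YIR043C, codon 62, chrIX:437982-438011, minus strand: ctaccacttagcatcTGAtggaaactttcc
YOL153C, codon 131, chrXV:38163-38192, minus strand: cttcacaaatatttcTAAgagacttttcct
CRS5, codon 9, chrXV:389222-389251, plus strand: aaaatatgtgactgtTAAggcgaatgttgt

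FLO8, a transcription factor of flocculation genes that is disrupted by a nonsense mutation in laboratory strains of this lineage, read 0.0652 and 0.0596 in untreated WT, 0.229 and 0.292 in treated WT, 0.162 and 0.151 in the untreated mutant and 0.319 and 0.290 in the treated mutant. The strains were apart in DMSO and overlapped under the drug. The FLO8 interaction was -0.86 ± 0.126 (SE; limma adjusted p = 0.00787).

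CCW22 was the most abundant pseudogene transcript, at 1.73 and 1.84 in untreated WT, 9.27 and 14.2 in treated WT, 5.53 and 6.71 in the untreated mutant and 14 and 17 in the treated mutant. Its treated WT libraries differed by more than those of any other group, and its interaction of -1.13 ± 0.254 (SE) had a limma adjusted p of 0.0325. The others ranged from -0.98 for AAD6, an aryl-alcohol dehydrogenase gene, through -1.56 for SDL1 and -1.72 for YIR043C to -1.73 for YOL153C. SDC25, a Ras exchange factor gene, had -0.76 with a frame that runs to its annotated end. CRS5, a metallothionein gene whose stop comes at codon 9, had -0.49, with adjusted p of 0.127 relative to protein-coding genes and 0.238 on the deposited scale.

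Among genes of the NMD pathway itself, the factors that act with Upf1 differed. NMD4, which binds Upf1, had an interaction of -1.33 ± 0.110 (SE; limma adjusted p = 0.00261), with densities of 0.122 and 0.119 in untreated WT, 0.621 and 0.727 in treated WT, 0.570 and 0.481 in the untreated mutant and 1.05 and 0.934 in the treated mutant. EBS1, which encodes a relative of the telomerase subunit Est1, had an interaction of -0.72 ± 0.0965 (SE). Its limma adjusted p was 0.00584 relative to protein-coding genes and 0.0390 on the deposited scale. The EBS1 call on both scales depended on single libraries. Those 2 were the only lower calls among 27 measured NMD and mRNA decay factors, whose median was 0.19 relative to protein-coding genes, and none was higher. NMD2 and UPF3, which encode the Upf2 and Upf3 partners of Upf1, had values of -0.05 ± 0.15 (SE) and -0.04 ± 0.230 (SE), with 95% intervals of -0.40 to 0.30 and -0.58 to 0.50, so an interaction as large as that of NMD4 lies outside both. Their signs turned, to 0.0935 and 0.0959, when libraries were scaled on all tested features.

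Of 37 measured mRNAs on a list of known NMD substrates, 11 (29.7%) had a lower interaction on both scales and none a higher one, with a median of -0.44 relative to protein-coding genes, against 0.06 for all protein-coding genes. Among its members that act at telomeres, STN1 was called. EST2, the catalytic subunit of telomerase, had -1.12 ± 0.141 (SE), TEN1, the partner of Stn1, had -1.17 ± 0.172 (SE), and EST3, a telomerase subunit, had -1.01 ± 0.192 (SE). The EST2 densities were 0.0256 and 0.0271 in untreated WT, 0.230 and 0.286 in treated WT, 0.131 and 0.108 in the untreated mutant and 0.471 and 0.416 in the treated mutant. All 4 EST2 groups were apart, and its drug response was above 0 in both strains, at 1.51 in WT and 0.39 in upf1. EST1, another telomerase subunit, had -0.58 with adjusted p of 0.0563 relative to protein-coding genes and 0.126 on the deposited scale. The remaining calls were FRE2, DAL7, DAL2, ZRT1, THI22, EBS1 and PGA1. CPA1, a classical substrate whose upstream reading frame encodes the arginine attenuator peptide, had -0.80 ± 0.219 (SE), and passed on the deposited scale (limma adjusted p = 0.0381) but not relative to protein-coding genes (0.0605). On the list, YAP1, URA1 and RPL28 had interactions of -0.01, 0.06 and -0.04, none called. Their densities do not separate spliced from unspliced RNA, so a change in unspliced RNA alone could be missed.

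Lists of genes for poor nitrogen, autophagy and meiosis held several lower calls, read here against the 6.18% of all protein-coding genes. Over density deciles of protein-coding genes that share ranged from 0.692% to 11.1%. Neither these lists nor those below were matched on density. Of 34 nitrogen catabolite genes, which serve poor nitrogen sources, 7 (20.6%) were lower: DAL2, DAL3, DAL5, DAL7, DUR3, GDH2 and OPT2. DAL5, the allantoate permease, had -1.85 ± 0.138 (SE), with a drug response of 1.27 in WT and -0.57 in upf1. Of 35 autophagy genes, 7 (20%) were lower: ATG5, ATG12, ATG16, ATG19, ATG29, ATG31 and ATG40. ATG5, ATG12 and ATG16 encode the conjugate that helps attach Atg8 to membranes, and ATG16 had -1.58 ± 0.143 (SE). Of 34 meiosis and sporulation genes, 4 (11.8%) were lower, among them IME2, a protein kinase of meiosis, at -1.80 ± 0.145 (SE), and RED1 and MEI4 of the meiotic chromosome axis and recombination, at -1.39 and -1.53. None of the 3 lists had a higher call, and their medians relative to protein-coding genes were -0.09, -0.19 and -0.61.

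The lists of metal, stress and drug genes are read against the 6.18% of all protein-coding genes that were lower. Of 30 genes of the iron regulon, 4 (13.3%) were lower: ARN1 and ARN2, which import iron chelates, and FRE2 and FRE3, which are metalloreductases, with FRE2 at -1.70 and FRE3 at -1.53. Of 16 copper and zinc genes, 3 (18.8%) were lower: ZRT1 and ZRT2, the zinc transporters of the plasma membrane, at -1.41 and -0.79, and ADH4 at -0.75. Of 24 oxidative stress genes under Yap1, 6 (25%) were lower, among them the glutathione transferase GTT2 at -1.78, FLR1 and the aryl-alcohol dehydrogenase genes AAD4, AAD6 and AAD14. AAD6, counted above among the pseudogenes, is not one of the protein-coding genes behind the 6.18%. The pleiotropic drug resistance list had 4 lower of 27 (14.8%), PDR10, FLR1, ATR1 and QDR1. The induced environmental stress response had 4 of 62 (6.45%), ALD3, SSA3, RTN2 and GCY1, a share near that of all protein-coding genes, and relative to protein-coding genes alone 8 lower and 6 higher. SSA3, a cytosolic Hsp70, was also the single lower call among 27 targets of the heat shock factor Hsf1 (3.7%).

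Metabolic lists ranged from no lower call to shares above the 6.18% of all protein-coding genes. Sulfur assimilation had 4 lower of 32 (12.5%), MET1, MET3, STR2 and JLP1, with JLP1 at -1.96. Genes of the retrograde and glyoxylate pathways had 4 lower of 25 (16%), namely ICL1 of the glyoxylate cycle and CRC1, CAT2 and YAT2, which carry or use acetylcarnitine. Targets of Gcn4 in amino acid synthesis had 4 lower of 51 (7.84%), ARG3, ARG56, HIS5 and ORT1, of which all but HIS5 act in arginine synthesis. Glucose repression and derepression gave 2 of 20 (10%), the maltose transporters MAL11 and MAL31, at -1.77 and -0.92. Among the list members named in the text, ATR1, MAL31, LSO2, CRC1, CTF19, KAR5, GIT1, HEF3, ORT1, SPS4, MEI4, CAT2, HIS5 and GLG1 lost an adjusted p under 0.05 relative to protein-coding genes in at least 1 of the 8 fits that leave out a library. ATR1 and MAL31 kept it in 1 of these fits each, LSO2 in 2, and CRC1, CTF19 and KAR5 in 3 each. That concerns the scale relative to protein-coding genes only, and calls on both scales depended more on single libraries, as given above for the lower count. Only genes named by the rules given below were followed through these fits. Other list members in the text, such as EST2, TEN1, EST3, DAL2, ATG5, RED1, ARN2 and ICL1, were not checked in this way. No gene was lower among 23 of glycolysis and fermentation, 51 of respiration and the TCA cycle, 26 of ergosterol synthesis, 33 of the proteasome, 70 of ribosome biogenesis, 31 subunits of RNA polymerases or 11 histone genes, nor was any of these higher on both scales.

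Among 138 cytosolic ribosomal protein genes, RPL22B was the single call. RPL22B, the minor copy of the gene pair for eL22, carries an intron and its protein is known to restrain splicing of the RPL22B transcript. Its densities were 0.779 and 0.744 in untreated WT, 4.59 and 5.18 in treated WT, 2.27 and 2.31 in the untreated mutant and 7.47 and 6.59 in the treated mutant. All 4 groups were apart. The interaction was -0.85 ± 0.118 (SE; limma adjusted p = 0.00657), while the median of the 138 genes was 0.21. Spliced and unspliced RNA were not separated in the counts. Among translation factors HEF3, a second copy of elongation factor 3 that is rarely expressed, was the single lower call of 44, at -1.18.

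The marker of alpha cells SAG1, the alpha-agglutinin gene, was lower at -1.17 ± 0.161 (SE), in cells of mating type a, with densities of 0.0440 and 0.0541 in untreated WT, 0.204 and 0.262 in treated WT, 0.229 and 0.213 in the untreated mutant and 0.395 and 0.394 in the treated mutant. The treated WT and the untreated mutant overlapped, and SAG1 lay below the summed density of the a-cell markers in every library. SAG1 was the single call of 4 alpha-cell genes, and none of 8 a-cell genes was called on both scales.

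SPL2 was the one protein-coding gene with more than a few reads whose interaction was higher on both scales. Spl2 restrains low-affinity phosphate uptake and its gene is a target of the phosphate regulator Pho4. Its density was 0.561 and 0.550 in untreated WT, 5.41 and 6.19 in treated WT, 0.186 and 0.156 in the untreated mutant and 3.26 and 3.08 in the treated mutant. All 4 groups were apart, and the mutant lay below WT with and without the drug. In the 12 genes above, the mutant lay above WT without the drug. The drug response relative to protein-coding genes was 1.66 in WT and 2.70 in upf1, an interaction of 1.04 ± 0.111 (SE; limma adjusted p = 0.00327) that kept an adjusted p under 0.05 relative to protein-coding genes without any 1 library. On both scales together SPL2 was called in 2 of the 8 fits that leave out a library, those without a treated WT library, and lost its call without any 1 of the other 6. Of 21 measured genes of the phosphate list, SPL2 was the single higher call, and GIT1, a transporter of glycerophosphodiesters, and CTF19, a kinetochore gene that the list also holds, were lower at -1.37 and -1.07. CTF19 overlaps IRC15 on the other strand. The other 2 protein-coding features called higher, YOR293C-A and YOR008C-A, had 0 and 1 recovered reads in the untreated mutant and get no fold here.

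The core Pho4 motif CACGTG, which reads the same on both strands, occurs 3 times upstream of SPL2 in the R64 sequence, shown in capitals at 147, 90 and 31 bases before the start codon.
SPL2, chrVIII:375230-375259, minus strand: aaatgatgtacgCACGTGggcgaaagttca
SPL2, chrVIII:375173-375202, minus strand: tctctcttttccCACGTGctccgctctctt
SPL2, chrVIII:375114-375143, minus strand: agtcactgcagcCACGTGcctagatctatt
In windows from 250 bases before to 50 after the start codon, CACGTG was found in 2.96% of all 5778 tested genes and 3.08% of the 357 genes with a lower interaction. For the other motifs searched on both strands of the same windows the shares were as follows. The stress element CCCCT was found in 20.7% of the 357 against 21.9% of all, the Gcn4 site TGACTC in 11.5% against 8.24%, the nitrogen site GATAAG in 18.8% against 14.7%, and the Yap1 site TTACTAA in 8.68% against 7.65%. The heat shock element was found in 0 of the 357 against 0.813% of all, the drug resistance element TCCGNGGA in 1.4% against 1.25%, the proteasome element GGTGGCAAA in 1.12% against 1.23%, the site GTCAC in 24.9% against 26.8% and the Mig1 site CCCCNG in 8.4% against 9.54%. A match is a stretch of letters and not evidence of binding.

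Relative to protein-coding genes alone, a further set had a higher interaction without passing on the deposited scale. It included the hexokinase HXK1 at 0.99, the hexose transporter HXT2 at 0.96, the mitochondrial pyruvate carrier subunit MPC3 at 1.19, the a-cell gene ASG7 at 0.88 and 7 of 69 mitochondrial ribosomal protein genes, against 61 of 5779 protein-coding genes (1.06%) higher on that scale. HXK1 read 0.616 and 0.513 in untreated WT, 0.249 and 0.327 in treated WT, 0.639 and 0.522 in the untreated mutant and 0.512 and 0.501 in the treated mutant, so the drug groups were apart and the DMSO groups overlapped. Its adjusted p was 0.00949 relative to protein-coding genes and 0.0983 on the deposited scale.

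Of the 890 lower calls, 497 were noncoding transcripts of 4 classes. Of the 4758 XUTs, CUTs, SUTs and NUTs tested, these are 10.4% on both scales, and 7 (0.147%) were higher. The deposited scale alone gave 549 (11.5%) lower and 12 (0.252%) higher, and the scale relative to protein-coding genes 645 (13.6%) and 16 (0.336%). The classes differed in their counts: 224 of 1603 XUTs (14%) and 175 of 809 SUTs (21.6%) were lower, against 73 of 1448 NUTs (5.04%) and 25 of 898 CUTs (2.78%). Their median interactions relative to protein-coding genes were -0.72 (XUTs), -0.71 (SUTs), -0.30 (NUTs) and -0.07 (CUTs). The classes overlap one another and genes in part, so a stretch of RNA can count in more than 1 class, as XUT1711 and NUT1437 below may.

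The level of each class as a whole, given as its median density in percent of the protein-coding median of the same library, needs no pseudocount. For XUTs it was 4.19% and 4.61% in untreated WT, 7.64% and 7.28% in treated WT, 9.35% and 9.84% in the untreated mutant and 9.59% and 10.3% in the treated mutant. The level was lowest in untreated WT, in between in treated WT and highest in both mutant groups, which overlapped. The drug moved it by 0.76 (95% interval 0.56 to 0.96, log2) in WT and by 0.05 (-0.15 to 0.25) in the mutant, an interaction of -0.71 (-0.99 to -0.43). For SUTs the values were 5.81% and 6.31%, 9.05% and 8.86%, 13.8% and 14.7%, and 12% and 13.1% in the same order of groups, and the interaction was -0.75 (-1.03 to -0.47). The interval of NUTs, -0.41 (-0.86 to 0.05), reached just past 0, and it excluded 0 without WT DMSO replicate 2, at -0.54. That of CUTs, 0.05 (-0.49 to 0.59), lay around 0 and does not exclude a value as large as the estimate for NUTs.

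**Figure D4:**
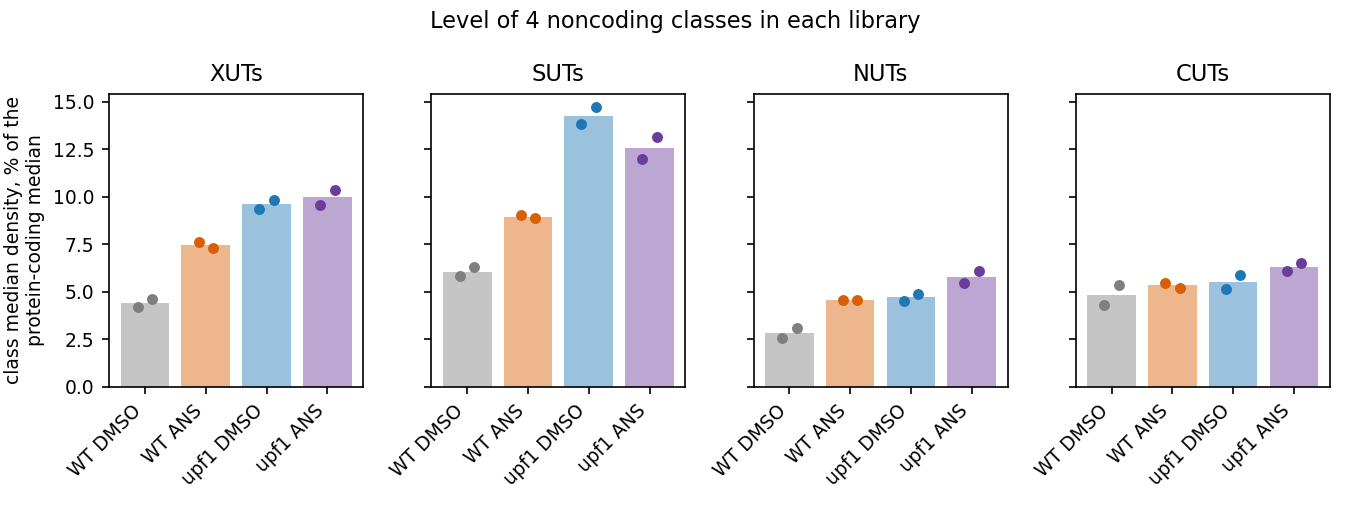
Median density of XUTs, SUTs, NUTs and CUTs as a percentage of the protein-coding median in each of the 8 libraries (points) with the mean of each group (bars). XUTs rise from 4.19% and 4.61% to 7.64% and 7.28% with the drug in WT and start at 9.35% and 9.84% in the untreated mutant.

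The share of lower calls mostly rose with abundance among XUTs and SUTs, but not among protein-coding genes. Among the density decile of XUTs with the highest density (median 0.115) 97 of 161 (60.2%) were lower, and among the decile of SUTs with the highest (median 0.188) 49 of 81 (60.5%) were. Protein-coding genes of nearly the same density (median 0.119) were lower in 11.1%, the highest decile of CUTs (median 0.135) in 8.89% and of NUTs (median 0.154) in 17.9%. Density here is the mean over all 8 libraries, so it includes the groups in which called features are high. Called XUTs, for one, had a median density of 0.00937 in untreated WT and 0.129 in the treated mutant. The deciles are therefore not matched on the level in untreated WT, and part of the contrast between classes can come from the binning. In the density decile of XUTs with the lowest density 0.621% were lower, although their median interaction was -0.42, so the small share of calls among scarce transcripts does not mean that their values lay at 0. Among the most abundant protein-coding genes (median 3.35) 0.692% were lower.

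**Figure D5:**
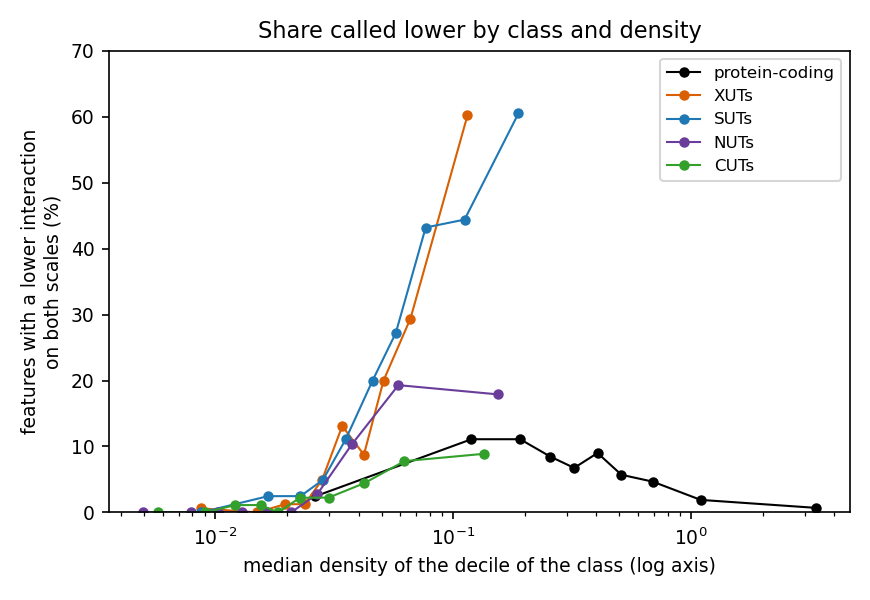
Percent of features with a lower interaction on both scales in each density decile of a class, against the median density of that decile (log axis). Density is the mean over all 8 libraries. XUTs and SUTs climb to 60.2% and 60.5%, protein-coding genes peak at 11.1%, and CUTs and NUTs end at 8.89% and 17.9%.

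For single transcripts, XUTs with at least 20 recovered reads in every group are described, a minimum set after the data were seen that 138 of the 224 met. XUT0988 read 0.00859 and 0.00906 in untreated WT, 0.104 and 0.147 in treated WT, 0.125 and 0.119 in the untreated mutant and 0.196 and 0.178 in the treated mutant. The treated WT and the untreated mutant overlapped and untreated WT stood apart below them. The interaction was -2.75 ± 0.173 (SE; limma adjusted p = 0.00172). XUT1711 and XUT1113 followed at -2.24 and -2.16. Among SUTs, SUT085 had -2.12 and SUT688 -2.0. NUT1437 had -2.41, with values in every library close to those of XUT1711, and CUT546 had -1.65.

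Several of the most negative fitted values belonged to transcripts with 0 or 1 recovered read in untreated WT and are given as densities. Recovered reads are lower bounds. XUT0496 was at 0 in both untreated WT libraries, at 0.0710 and 0.127 in treated WT, at 0.0407 and 0.0403 in the untreated mutant and at 0.118 and 0.163 in the treated mutant. XUT1567 and XUT0475, at 0 in untreated WT too, read 0.168 and 0.152, and 0.0741 and 0.0998, in treated WT. Both already had reads in the untreated mutant, at 0.0202 and 0.0245 for XUT1567 and 0.0358 and 0.0237 for XUT0475. CUT574, CUT125, CUT440, SUT094 and SUT547 had the same 0 in both untreated WT libraries with at most 15 recovered reads in any other group. XUT0312, XUT1468, the open reading frames YCR102W-A and YJR038C and the tRNA gene tN(GUU)C, also called lower, had 0 or 1 recovered read in untreated WT.

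The higher noncoding calls were few and rested on low reads. XUT1115 read 0.0349 and 0.0216 in untreated WT, 0.0416 and 0.0448 in treated WT, 0.0250 and 0.0152 in the untreated mutant and 0.104 and 0.0940 in the treated mutant, an interaction of 1.75 ± 0.386 (SE; limma adjusted p = 0.0307). The treated mutant stood above the other groups. SUT331, NUT1393 and XUT1789 had 1.44, 1.66 and 1.41. On both scales together XUT1115, XUT1789 and SUT331 kept their call in 1 each, and NUT1393 in 3, of the 8 fits that leave out a library. XUT1754, CUT789 and SUT427 had 3 recovered reads or fewer in at least 1 group and get no fold.

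Stable RNAs of other kinds mostly had no call. None of 76 snoRNAs, 83 Ty open reading frames or 19 mitochondrial features was called on both scales. Of 275 tRNA genes, 5 were higher and 2 lower. Of the 5, tV(CAC)H had more than 3 recovered reads in every group and an interaction of 1.47 ± 0.286 (SE; limma adjusted p = 0.0203). The isoleucine tRNAs tI(AAU)L2, tI(AAU)N1 and tI(AAU)E1 had 0 to 7 recovered reads per group. They belong to a family of near-identical copies, whose reads cannot be assigned with certainty. The class level of tRNAs had an interaction of 0.24 (95% interval -1.15 to 1.63), which spans 0, and leaving out upf1 DMSO replicate 1 turned it to -0.20.

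Of 4 features of the 2-micron plasmid, a multicopy plasmid that is not part of the chromosomes, 2 were lower. R0040C read 0.846 and 0.891 in untreated WT, 5.52 and 6.72 in treated WT, 5.30 and 5.23 in the untreated mutant and 10.6 in both libraries of the treated mutant. The treated WT lay just above the untreated mutant, and both lay between the other groups. Its interaction was -1.58 ± 0.106 (SE; limma adjusted p = 0.00172). R0010W had -1.16 ± 0.220 (SE), while R0030W had -0.04 and R0020C -0.68, neither called. Of 548 dubious or unmatched open reading frames 25 (4.56%) were lower and none was higher. Plasmid copy number was not measured, and its part in the values of R0040C and R0010W was not tested.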

How the data were processed

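The submitters' processing notes name HISAT2 2.2.0 and featureCounts 2.0.0, besides Trim Galore and DESeq2, and build R64, and give neither the role of each tool nor whether counting used strand. The authors deposited a signal, a normalized density for 11966 features in 8 libraries, and their group means were not used for tests. All densities above 0 (11954 of 11954 features) could be written as whole reads per length times 1 factor per library (length 20 to 20000 nt, tolerance 1e-05, the shortest length that fits), so read numbers are lower bounds and serve for depth and for reads near 0. Their counting error assumes independent molecules. Spike-in RNA named in the labels' protocols was not used here.

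The interaction was tested with limma 3.58.1 (R 4.3.3) after taking log2(density + 0.003397), where 0.003397 is the 0.05 quantile of values above 0, so changes of scarce RNAs are understated. Of the features, 11579 had a mean density no smaller than this and were tested, and 387 were left out. The model had 1 mean per group, 4 residual degrees of freedom (median 9.69 after moderation), a variance trend, two-sided tests and Benjamini-Hochberg adjustment at 0.05 over all features. The second scale divides each library by its median, over protein-coding genes, of the density divided by that gene's geometric mean. The median SE of an interaction was 0.317 on the deposited scale and 0.261 on the other. The 4 simple contrasts that make up an interaction share libraries. The script was tested on simulated data.

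Members, lists and rules were chosen with earlier results of these data known. Genes named are the 12 protein-coding genes in each direction with the largest interaction among those called on both scales and with a mean density above the protein-coding median (0.359), the 5 XUTs, 3 CUTs, 3 SUTs, 3 NUTs and 3 others by size, and up to 3 members per list, with NAM7, NMD2, UPF3 and CPA1. Others were chosen after their values were seen. Alternatives changed the pseudocount, filter, scaling, variance trend, replicate block and libraries used. limma voom on recovered reads was added after the data were seen. Sequences come from the R64 reference.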

Additional observations from a re-analysis of the deposited data

Results flagged for a closer look

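A drug response that differed between WT and upf1 by the interaction test is what flags each result here. On both scales 15 features were higher and 890 lower, and the class levels of XUTs and SUTs had interactions of -0.71 and -0.75. The values below are the log2 interactions on the deposited scale, and the report gives most of them relative to protein-coding genes. No explanation of them was tested.

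SPL2 had 0.81, XUT1115 1.56, XUT1789 1.22, SUT331 1.22 and NUT1393 1.55. On the negative side, SRL3 had -2.53, YOL014W -2.32, DAL7 -2.23, NUT2 -2.22, ISC10 -2.12 and SLO1 -2.11. EMA17 had -1.96, STN1 -1.92, HTL1 -1.92, YLR125W -1.88, FLR1 -1.76 and YOR376W-A -1.73. Among noncoding transcripts SUT262 had -2.42, NUT1437 -2.43, NUT1299 -1.69 and NUT0951 -2.0.

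Among NMD substrates and factors THI22 had -1.52, NMD4 -1.53 and EBS1 -0.93, and LSO2, a ribosome-binding factor, had -1.10. The stress genes SSA3, RTN2 and ALD3 had -1.32, -1.49 and -1.91, INO1, the inositol synthesis gene, -1.69, and HEF3 -1.29. In amino acid and sulfur metabolism ARG56, HIS5 and ORT1 had -1.11, -0.92 and -0.97, and MET1, STR2 and JLP1 had -1.52, -1.43 and -1.91.

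The carnitine genes YAT2, CAT2 and CRC1 had -1.61, -1.15 and -1.36, and the maltose transporters MAL11 and MAL31 had -1.87 and -1.07. DAL5, GDH2 and ADH4 had -1.99, -1.17 and -0.96. PDR10 and ATR1 had -1.18 and -0.82, and AAD4 and GTT2 had -1.56 and -1.93. Metal genes FRE3, FRE2 and ARN1 had -1.69, -1.82 and -1.23, and ZRT1 and ZRT2 had -1.60 and -1.01.

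GIT1 and CTF19 had -1.46 and -1.28, SAG1 -1.34 and KAR5, a gene of nuclear fusion in mating, -1.54. The meiotic genes IME2, MEI4 and SPS4 had -1.92, -1.59 and -1.35. ATG16, ATG29 and ATG12 had -1.72, -1.60 and -1.42, GLG1, which primes glycogen synthesis, -1.02, and RPL22B -1.06.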

How the results depend on the processing

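Counts of calls depended on which library was left out, on the pseudocount and on the scale. Leaving out 1 library gave 0 to 56 higher and 0 to 1704 lower features on the deposited scale, 8 to 93 and 397 to 1552 relative to protein-coding genes, and 0 to 28 and 0 to 870 on both, in fits with fewer libraries. With 5 times the pseudocount, 10 were higher and 360 lower on the deposited scale, and 8 and 355 on both. Scaling on all tested features gave 355 higher. Without the variance trend 39 were higher relative to protein-coding genes. limma voom on recovered reads, chosen after seeing the data, gave 1800 lower on the deposited scale, 163 higher relative to protein-coding genes and 1509 lower on both, of which 844 were among the 890. At an unadjusted p under 0.05, 99 were higher and 2364 lower on the deposited scale.

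The class levels of XUTs and SUTs kept their sign and an interval below 0 throughout, at -0.78 to -0.64 and -0.81 to -0.68 without 1 library. That of NUTs ranged from -0.54 to -0.27, and was -0.54 with an interval below 0 under the stricter filter. That of CUTs was -0.056 under the stricter filter and ranged from -0.11 to 0.21 without 1 library, and that of tRNAs from -0.20 to 0.68. NMD2 and UPF3 changed sign, to 0.0935 and 0.0959, when scaled on all tested features, and ranged from -0.148 to 0.0807 and from -0.278 to 0.155 without 1 library. The cause of these shifts was not tested.

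Replicates share a number across groups but not a stated origin. Their deviations correlated between -0.04 and 0.16. With a replicate block the counts were 22 and 842, 89 and 1126, and 15 and 740. With 2 libraries per group, p-values measure the spread between these samples.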
